A study of Mus musculus with 6 samples.

Results

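The 4 mature miRNAs described here are both arms of 2 hairpins that lie within introns of metabolic genes. mmu-miR-33-5p and mmu-miR-33-3p come from Srebf2, and mmu-miR-378a-3p and mmu-miR-378a-5p from Ppargc1b. They were chosen by name out of 1978 known mature miRNAs listed, with their levels and arm ratios in hypoxia against control libraries already in view. Those levels and ratios are therefore given as a description, without a test. All 4 passed the filter on low counts, as did 619 known miRNAs in all.

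Small RNA was sequenced from c-kit+ cardiac progenitor cells, which are heart cells that carry c-kit, the receptor for stem cell factor. They were taken with antibody-coupled magnetic beads from the digested hearts of wild-type male C57BL/6 mice aged 4 to 6 weeks. There were 3 libraries of cells under hypoxia for 12 hours (titled Model in the labels) and 3 control libraries labelled 0 hours. The treatment field of the labels names hypoxia for both groups, so titles and times define the groups. The sources used here give neither the oxygen level nor any pooling of animals, and unless control cells were also kept in culture for that time, hypoxia and time in culture cannot be told apart. The labels speak of RNA from exosomes and the series' design text of RNA from cells, which was not settled. Columns carry a digit and a letter, and digit 1 was read as hypoxia and digit 0 as control, so every direction given here rests on that reading. The letters A, B and C match no label. The libraries are called biological replicates, but nothing says that each had its own animals or culture. The p-values then reflect only how far these libraries differ, which may be technical.

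Srebf2 encodes the transcription factor SREBP2, which switches on cholesterol synthesis and uptake when cell sterols are low. miR-33 is transcribed with it and is known to repress the cholesterol exporter Abca1 and several genes of fatty acid oxidation. Ppargc1b encodes a coactivator of mitochondrial and energy genes. In mice miR-378a is known to repress Crat and Med13, genes of mitochondrial metabolism and metabolic control, and it is abundant in heart and skeletal muscle.

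The miR-33 hairpin, named Mir33 (ENSMUSG00000065465), lies on the plus strand at chr15:82198122-82198190 of GRCm38. GENCODE M21 places it in an intron of Srebf2, the intron numbered 16 of 18 in transcript Srebf2-201. The 3 lines that follow show, 5′ to 3′, what each arm count stands for. In the arms, capitals mark the seed (bases 2 to 8), the stretch that pairs with target mRNAs, and in the hairpin they mark the mature arms.
miR-33-5p: gUGCAUUGuaguugcauugca
miR-33-3p: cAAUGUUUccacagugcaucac
Mir33 hairpin: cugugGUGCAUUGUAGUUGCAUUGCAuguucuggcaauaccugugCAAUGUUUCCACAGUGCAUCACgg
The sequences are those of RefSeq on build GRCm38.p6. The arms have different seeds. Among the 1679 mature mouse miRNA sequences searched, 0 others had the seed of miR-33-5p and 0 others that of miR-33-3p.

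Both miR-33 arms were scarce. In hypoxia libraries A, B and C, mmu-miR-33-5p had 35, 39 and 43 counts, against 7 to 36 in control libraries (36 in A, 7 in B and 22 in C). Scaled to library totals with TMM factors (CPM), those counts were 2.10, 2.39 and 3.12 CPM in hypoxia and 2.91, 0.538 and 1.40 CPM in control. The groups overlapped, because control A lay above hypoxia A and B. Control B, with an exact 95% Poisson interval of 0.216 to 1.11 CPM, lay below the other 5 libraries. Its interval overlapped that of control C (0.878 to 2.12 CPM). Such intervals take in the error of counting alone, as reads copied by PCR are not separate molecules.

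The mean level of miR-33-5p was 2.54 ± 0.524 CPM in hypoxia and 1.62 ± 1.20 CPM in control (SD, n = 3 each). Its fitted log2 fold change was 0.65 (SE 0.53). Without control B that value was 0.23 (SE 0.44), and without control A it was 1.33 (SE 0.51), so single control libraries set its size.

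The other arm had the clearest separation of the 4. In hypoxia libraries A, B and C, mmu-miR-33-3p had 27, 52 and 39 counts (1.62, 3.19 and 2.83 CPM), against 17, 8 and 11 counts (1.38, 0.615 and 0.700 CPM) for control A, B and C. Every hypoxia library lay above every control library. The gap was narrow at letter A, where the counting intervals of 1.07 to 2.36 CPM in hypoxia and 0.802 to 2.20 CPM in control overlapped. The hypoxia A interval also overlapped those of control B (0.265 to 1.21 CPM) and control C (0.350 to 1.25 CPM). That of control A overlapped hypoxia C too (2.01 to 3.87 CPM). A group order of this kind, hypoxia wholly above control, was seen for 46 of the 619 tested miRNAs (7.43%). It was seen for 1 of the 4 arms described here, and since their levels took part in the choice, nothing is read from that count.

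Mean levels of miR-33-3p were 2.55 ± 0.821 CPM in hypoxia and 0.897 ± 0.417 CPM in control (SD, n = 3 each). The fitted log2 fold change was 1.51 (SE 0.45), a 2.84-fold higher level in hypoxia, and 3 of the 619 tested miRNAs had a larger positive value. Standard errors were larger at low counts: among the 189 tested miRNAs below 5 CPM the median was 0.45, against 0.20 for those of at least 100 CPM. In that low range 16 of the 189 had an absolute log2 fold change above 1. That limit counts both directions and is lower than the 1.51 of miR-33-3p. Whether low counts set the value of miR-33-3p was not tested.

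**Figure D1:**
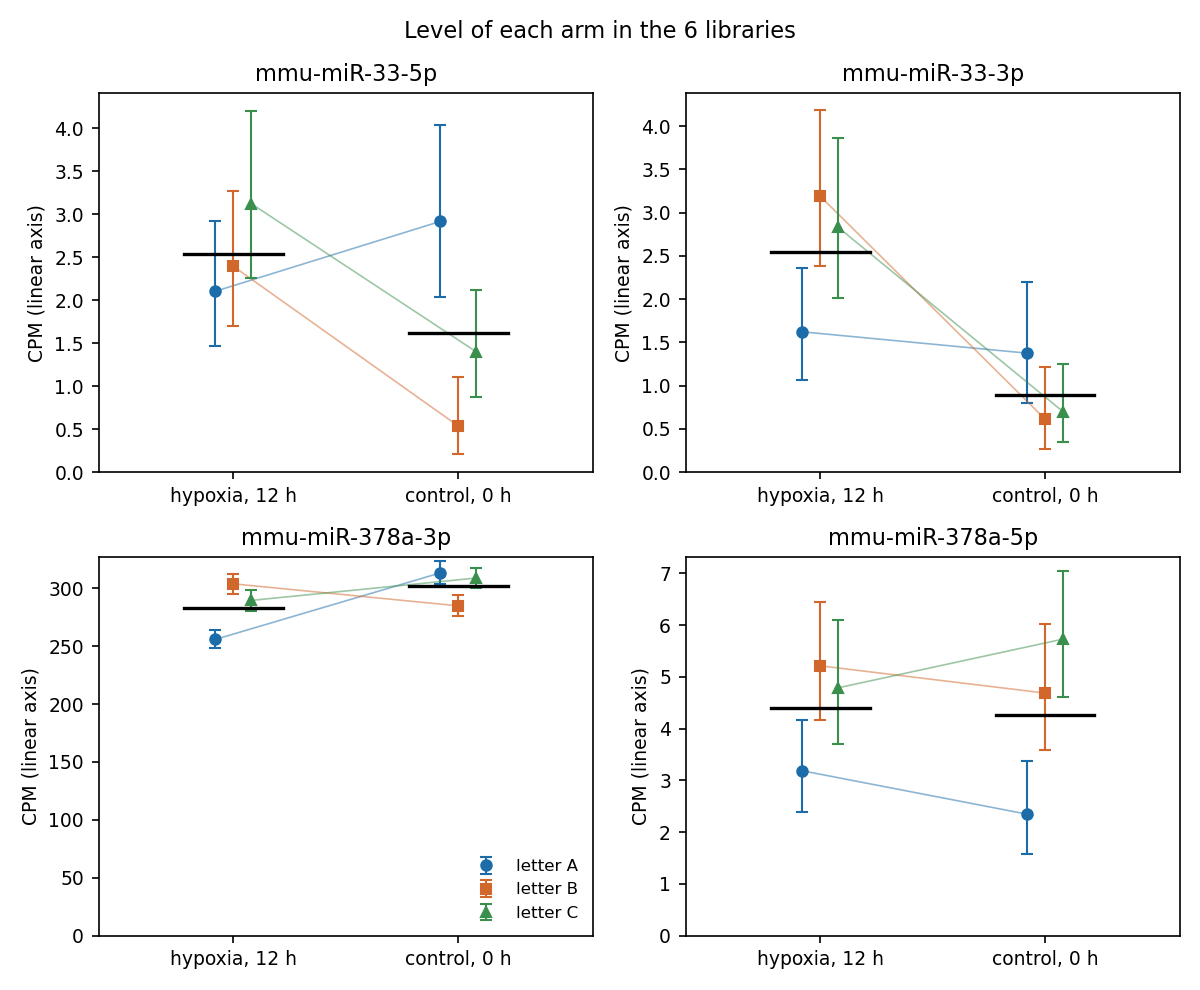
Level of each arm in CPM (linear axes from 0), with hypoxia libraries left and control libraries right; points are libraries joined by letter, bars are exact 95% Poisson intervals, and black lines are group means. The hypoxia libraries lie wholly above the control libraries for mmu-miR-33-3p (1.62 to 3.19 against 0.615 to 1.38 CPM), while the groups overlap for the other 3 arms.

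The 2 arms of miR-33 were nearly even in abundance. The 3p arm held 43.5%, 57.1% and 47.6% of the hairpin's counts in hypoxia libraries A, B and C. For control A, B and C the share was 32.1%, 53.3% and 33.3%. The groups overlapped, because control B lay above hypoxia A and C. With only 15 miR-33 counts in control B, the exact Clopper-Pearson 95% interval of its share ran from 26.6% to 78.7%.

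Within each letter the 3p share was higher in hypoxia. How many other hairpins had that order was not counted, and nothing is read from it, since the arm ratios took part in the choice. The mean share was 49.4% ± 6.98 in hypoxia and 39.6% ± 11.9 in control (SD, n = 3 each). On the log2 scale the ratio of 5p to 3p counts (0.5 added to each) was 0.03 ± 0.40 in hypoxia and 0.62 ± 0.69 in control, a difference of -0.58, smaller than the SD of the control libraries. Within pairs the difference was -0.69 at letter A, -0.23 at B and -0.83 at C, with an SD of 0.31 (n = 3). Single libraries set its size: it was -0.36 without control A or without hypoxia B, and -0.98 without control B.

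Of 189 hairpins with both arms past the filter, 8 were more even than miR-33, whose scarcer arm held 45.8% of its counts over all libraries. The median share of the scarcer arm was 11.1%. The fall in the 5p to 3p ratio was steeper in 17 of the 189 hairpins, and the median absolute difference between groups was 0.26. Both arms under 5 CPM occurred in 14 hairpins, and 4 of those had a larger absolute difference than miR-33.

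miR-378a had an abundant arm and a scarce one. Its hairpin, Mir378a (ENSMUSG00000105200), lies on the minus strand at chr18:61397835-61397900 of GRCm38, in the first intron of Ppargc1b in each of the 3 annotated transcripts. The 3p arm is the guide, the arm chiefly kept by Argonaute.

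In hypoxia libraries A, B and C, mmu-miR-378a-3p had 4256, 4952 and 3989 counts (256, 304 and 289 CPM). Control libraries A, B and C gave 3868, 3706 and 4850 counts (313, 285 and 309 CPM). The groups overlapped, with hypoxia A lowest and control A highest. This arm ranked 115th of all known miRNAs by mean share of counts, against places 436 for miR-378a-5p, 498 for miR-33-5p and 520 for miR-33-3p.

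Mean levels of miR-378a-3p were 283 ± 24.6 CPM in hypoxia and 302 ± 15.3 CPM in control (SD, n = 3 each), with a log2 fold change of -0.09 (SE 0.17). The difference of the means was smaller than the SD of the hypoxia libraries. Under 19 alternative settings the log2 fold change ran from -0.22 to -4.8e-05. These settings rework the same libraries, so nothing is read from the shared sign.

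The passenger arm, mmu-miR-378a-5p, had 53, 85 and 66 counts in hypoxia libraries A, B and C (3.19, 5.21 and 4.79 CPM), against 29, 61 and 90 for control A, B and C (2.35, 4.69 and 5.73 CPM). Both letter A libraries were the lowest of their group, and the groups overlapped. Means were 4.40 ± 1.07 CPM in hypoxia and 4.25 ± 1.73 CPM in control (SD, n = 3 each), with a log2 fold change of 0.04 (SE 0.37). Its sign turned when single libraries were left out, between -0.27 without control A and 0.31 without control C.

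The 5p arm took 1.23%, 1.69% and 1.63% of miR-378a counts in hypoxia libraries A, B and C, against 0.744%, 1.62% and 1.82% for control A, B and C. Only control A stood apart: its interval of 0.499% to 1.07% lay below those of control B and C and of hypoxia B and C, and it overlapped that of hypoxia A (0.923% to 1.61%). Means were 1.52% ± 0.249 in hypoxia and 1.40% ± 0.573 in control (SD, n = 3 each), a difference within the control spread. Over all libraries the arm held 1.48% of the hairpin's counts, and 41 of the 189 hairpins were more one-sided.

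**Figure D2:**
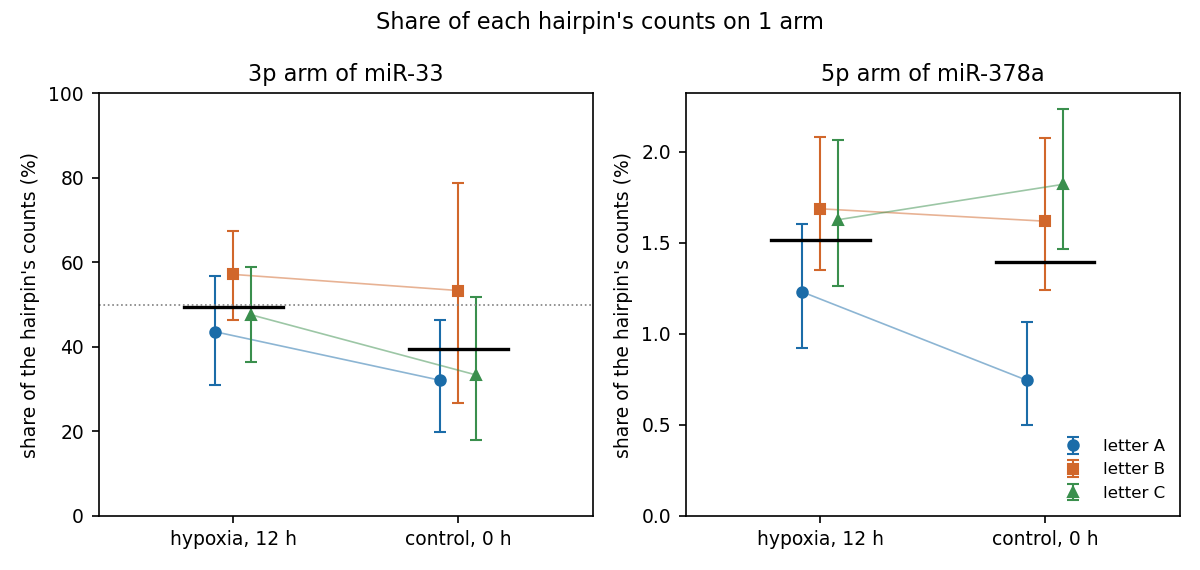
Share of each hairpin's counts on the arm that was scarcer over all libraries, in percent (linear axes from 0, of different height), with hypoxia left and control right; points are libraries joined by letter, bars are exact Clopper-Pearson 95% intervals, black lines are group means and the dotted line marks even arms. The miR-33 shares lie between 32.1% and 57.1%, whereas those of miR-378a lie between 0.744% and 1.82%.

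Libraries of the same letter tended to deviate together. Deviations of log2 CPM from the group mean correlated across the tested miRNAs at 0.52 for letter A, 0.43 for B and 0.28 for C. Between libraries of different letters the correlation ran from -0.44 to 0.12. Deviations cancel out within each group, so these values are not independent of each other. From them the letters were read as pairs and entered as a block in a further fit. With the block the log2 fold changes were 0.79 (SE 0.48) for miR-33-5p, 1.50 (SE 0.49) for miR-33-3p, -0.10 (SE 0.12) for miR-378a-3p and 0.09 (SE 0.23) for miR-378a-5p. The standard error was smaller with the block for miR-33-5p and both miR-378a arms, and slightly larger for miR-33-3p.

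Within pairs, the log2 CPM difference of miR-33-3p was 0.22 at letter A, 2.15 at B and 1.83 at C (prior count 2). For miR-33-5p it was -0.45 at A, 1.91 at B and 1.08 at C. Letter A thus differed from B and C for both miR-33 arms, with a spread between pairs of 1.03 for 3p and 1.19 for 5p (SD, n = 3). A difference above 0 in all 3 pairs was found for 124 of the 619 tested miRNAs (20.0%) and, among the 4 arms, for miR-33-3p.

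The miR-378a arms moved little within pairs. For miR-378a-3p the differences were -0.29 at A, 0.09 at B and -0.09 at C, and for miR-378a-5p 0.42, 0.15 and -0.25. The arms went opposite ways at letter A and the same way at B and C.

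**Figure D3:**
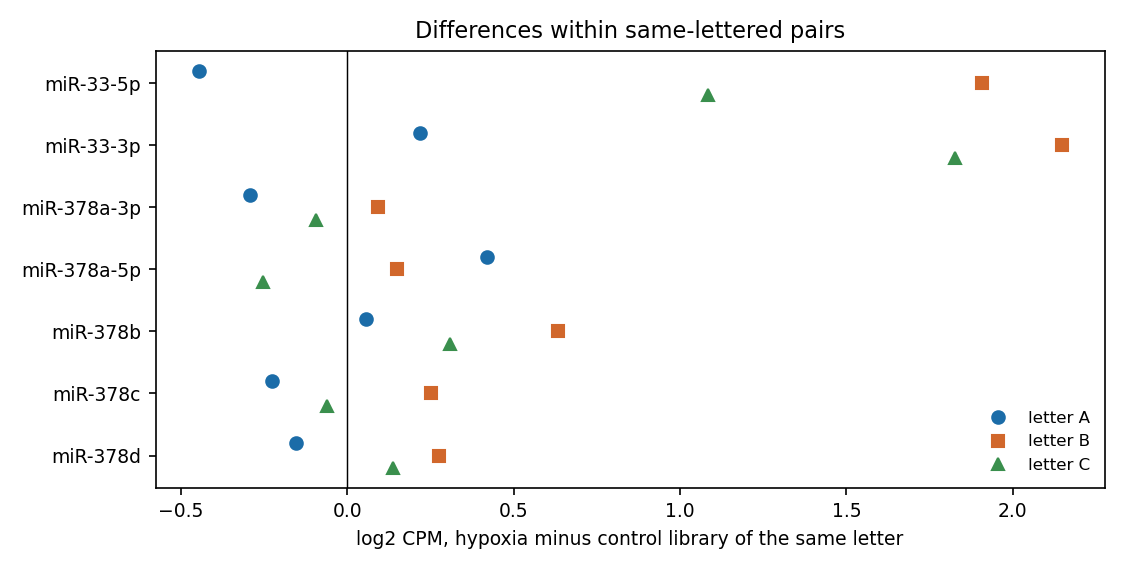
Difference in log2 CPM, hypoxia minus control library of the same letter, for the 4 arms and 3 relatives of miR-378a; each point is 1 pair and the vertical line marks no difference. Both miR-33 arms reach 1.08 or more at letters B and C and lie at -0.45 and 0.22 at letter A, while the miR-378a arms stay between -0.29 and 0.42.

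Close relatives of miR-378a are encoded elsewhere in the mouse genome, and reads could be divided among them where the counting allowed it, which the sources used here do not state. mmu-miR-378b comes from chromosome 11, mmu-miR-378c from chromosome 14 and mmu-miR-378d from chromosome 10. In RefSeq the seed of miR-378c is CUGGACU and that of miR-378d CUGGCCU, while miR-378b starts 1 base further in and has the seed UGGACUU.

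miR-378c had 680, 1035 and 609 counts in hypoxia libraries A, B and C, against 590, 693 and 724 for control A, B and C. For miR-378d they were 597, 743 and 575 in hypoxia and 493, 489 and 595 in control. miR-378b was scarcer, with 80, 147 and 107 counts in hypoxia and 57, 75 and 98 in control. In CPM the groups overlapped for all 3.

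None of the 3 relatives passed edgeR's quasi-likelihood test, adjusted by Benjamini-Hochberg over the 619 tested miRNAs. The log2 fold change was 0.37 (SE 0.29, adjusted p = 0.92) for miR-378b, 0.01 (SE 0.22, adjusted p = 0.99) for miR-378c and 0.09 (SE 0.19, adjusted p = 0.99) for miR-378d. That test called 0 of the 619 (0%), with 42 at an unadjusted p under 0.05. With the letter as a block it called 14 (2.26%), 6 higher and 8 lower in hypoxia, and the 3 relatives were not among them either (adjusted p = 0.35, 0.98 and 0.78).

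Set against miR-378a-3p in the same library, miR-378d counts were 14.0%, 15.0% and 14.4% of it in hypoxia libraries A, B and C, against 12.7%, 13.2% and 12.3% for control A, B and C. These groups did not overlap. How many other miRNAs set against miR-378a-3p had such an order was not counted, and nothing is read from it. miR-378c stood at 17.4% ± 3.07 in hypoxia and 16.3% ± 2.09 in control (SD, n = 3 each), and miR-378b at 2.51% ± 0.564 and 1.84% ± 0.317, both with overlapping groups. No test of these ratios was made, since miR-378a-3p levels took part in the choice.

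**Figure D4:**
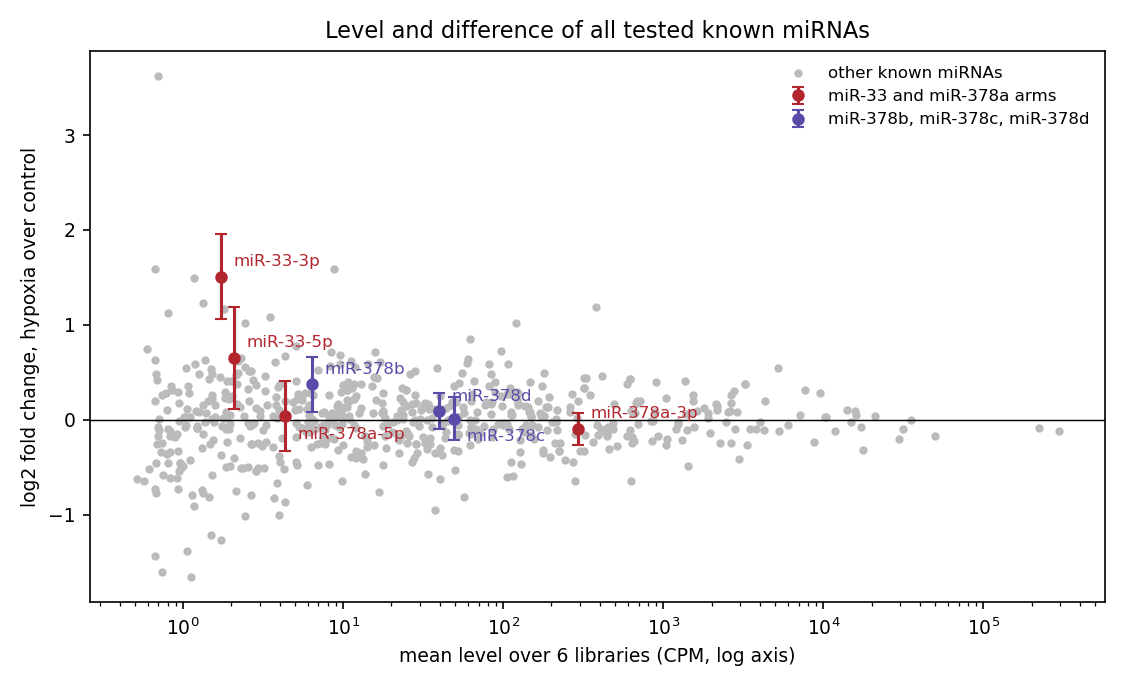
Mean level over the 6 libraries (CPM, log axis) against the log2 fold change, hypoxia over control, for the 619 tested known miRNAs; red points are the 4 arms, purple points the 3 relatives, and bars are standard errors. miR-33-3p lies high at 1.51 in the sparse range where values scatter most, and miR-378a-3p lies at -0.09.

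Which miRNAs had the most similar profile was measured as the root mean square difference of centred log2 CPM over the 6 libraries, among tested miRNAs of at least 10 CPM. The nearest to miR-378a-3p were miR-92a-3p (0.07), let-7b-5p (0.07) and let-7b-3p (0.09), where the median over 361 miRNAs was 0.27. Among all 618 other tested miRNAs, miR-378d stood 5th, miR-378c 80th and miR-378b 298th in likeness to miR-378a-3p. Its own other arm stood 401st, at 0.43.

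The passenger arm miR-378a-5p lay nearest to miR-582-3p (0.13), miR-365-3p (0.18) and miR-700-5p (0.22), where the median was 0.48. For miR-33-5p the nearest were miR-21a-3p (0.33), miR-15a-5p (0.39) and miR-193a-3p (0.42), where the median was 0.80. Those of miR-33-3p were miR-15a-5p (0.40), miR-29c-3p (0.45) and miR-29b-3p (0.46), where the median was 0.87. The arms of miR-33 differed from each other by 0.51. That placed miR-33-5p 9th of 618 in likeness to miR-33-3p, and miR-33-3p 20th in likeness to miR-33-5p.

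Other miRNAs known to act on cholesterol and lipoproteins were listed for comparison, with earlier results of these data known. Of 19 listed, 16 passed the filter, 6 lay above 0 and 10 below, and 0 were called with or without the block. Their median log2 fold change was -0.06, against 0.01 over all tested miRNAs, and it turned to 0.05 without control B and to 0.00 with scaling to library size alone. The most abundant were miR-148a-3p, a repressor of the LDL receptor and Abca1, miR-26a-5p and miR-27b-3p.

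miR-148a-3p averaged 15806 ± 1790.5 CPM in hypoxia and 19738 ± 2456 CPM in control (SD, n = 3 each), with every hypoxia library below every control library, an order that 34 of the 619 tested miRNAs had (5.49%). Its fitted log2 difference of -0.32 (SE 0.15) did not pass (edgeR adjusted p = 0.73). Levels of miR-26a-5p gave -0.07 (SE 0.13) and those of miR-27b-3p, which represses several lipid genes, 0.05 (SE 0.14). miR-122-5p, the liver miRNA of cholesterol metabolism, averaged 50.7 ± 18.3 CPM in hypoxia and 52.9 ± 34.9 CPM in control. miR-302a-3p and miR-144-3p stayed at 1 count or less in hypoxia libraries and 4 or less in control libraries.

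A second list held 15 miRNAs of energy, glucose and fat metabolism, of which 11 passed the filter. The median log2 fold change was 0.20, with 8 above 0 and 3 below, where 317 of all 619 tested lay above 0. Over 19 alternatives that median ran from 0.02 without hypoxia B to 0.28 without hypoxia A. Hypoxia lay wholly above control for 3 of the 11, miR-210-3p, miR-103-3p and miR-107-3p, against 7.43% of all tested. Without the block 0 were called, and with it 1 of 11 was, against 2.26% of all tested. That one was miR-210-3p, a repressor of the iron-sulfur assembly protein Iscu and a known hypoxia target. It averaged 527 ± 128 CPM in hypoxia and 232 ± 56.8 CPM in control (SD, n = 3 each), and hypoxia lay wholly above control. The log2 fold change under the block was 1.19 (SE 0.20), with an edgeR adjusted p = 0.024, against 0.65 without the block. DESeq2 without the block also called it (adjusted p = 0.019), as did edgeR without the filter (adjusted p = 0.0018), but without pair A or pair C the blocked call was not made.

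The most abundant of that list was miR-143-3p at -0.10 (SE 0.33), followed by miR-23a-3p at 0.17 (SE 0.20) and miR-103-3p at 0.20 (SE 0.15). miR-103-3p and miR-107-3p lie in introns of pantothenate kinase genes, which make coenzyme A. miR-107-3p averaged 167 ± 6.51 CPM in hypoxia and 126 ± 2.59 CPM in control (SD, n = 3 each), and its groups did not overlap. Its log2 fold change, 0.40 (SE 0.17), did not pass (edgeR adjusted p = 0.72, and 0.082 with the block). DESeq2 with the block called it (adjusted p = 0.033), as did edgeR with the block and library size only (adjusted p = 0.035). Both settings were added after the data were seen, and they called 37 and 55 miRNAs in all.

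Of 22 other miRNAs from introns of protein-coding genes, 20 passed the filter, 11 above 0 and 9 below, with a median of 0.06 and 0 called with or without the block. With scaling to library size alone the median was 0.12, and it was -0.01 without hypoxia A, hypoxia B or control B. The most abundant were miR-126a-3p of Egfl7 at -0.09 (SE 0.12), miR-26a-5p, and miR-126a-5p at 0.28 (SE 0.16). edgeR with the block and library size only, which called 55 miRNAs in all, called miR-126a-5p (adjusted p = 0.025). Hypoxia lay wholly above control for 2 of the 20, miR-103-3p and miR-107-3p, against 7.43% of all tested. Both were also on the list of energy, glucose and fat metabolism. It lay wholly below control for 1 of the 20, miR-151-3p of Ptk2, against 5.49% of all tested. miR-151-3p averaged 2531 ± 200.7 CPM in hypoxia and 3372 ± 268 CPM in control (SD, n = 3 each). Its log2 fold change, -0.41 (SE 0.15), did not pass (edgeR adjusted p = 0.65, and 0.060 with the block). DESeq2 with the block, added after the data were seen and calling 37 miRNAs in all, called it (adjusted p = 0.0074).

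miR-378a is abundant in heart muscle, so markers of cardiomyocytes were read beside it. In bulk RNA fewer cells of a type and less RNA per cell cannot be told apart. The 6 cardiomyocyte miRNAs summed to 137, 176 and 104 CPM in hypoxia libraries A, B and C, against 85.1, 172 and 77.2 CPM for control A, B and C. All 4 that passed the filter lay above 0, where 317 of all 619 tested did, with a median log2 fold change of 0.54. Without and with the block 0 were called, against 0% and 2.26% of all tested. Values were 0.27 (SE 0.34) for miR-1a-3p, 0.56 (SE 0.37) for miR-133a-3p, 1.17 (SE 0.45) for miR-133b-3p and 0.52 (SE 0.51) for miR-499-5p. Hypoxia lay wholly above control for 1 of the 4, miR-133b-3p, against 7.43% of all tested. Its counts were 25 to 55 in hypoxia and 9 to 23 in control. The defining miR-208a-3p had 4 to 9 counts in hypoxia and 3 in each control library, and miR-208b-3p 0 to 3 in hypoxia and 0 to 2 in control. The part of cardiomyocyte RNA in the levels of the arms was not tested.

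Markers of other cells were measured too. Both endothelial arms of miR-126a summed to 200668 to 238098 CPM in hypoxia and 227193 to 249640.0 CPM in control. The 5 fibroblast and smooth muscle miRNAs summed to 26573 to 50348 CPM in hypoxia and 26072 to 57419 CPM in control, highest at letter A in both groups. The 7 blood cell miRNAs summed to 42.6 to 56.8 CPM in hypoxia and 49.4 to 55.0 CPM in control. No marker of the c-kit+ identity itself is among the miRNAs listed. Known miRNA totals ran from 13170756 to 16975987 counts in hypoxia and from 12285970 to 15166638 in control, so a count of 0 allowed at most 0.244 CPM.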

How the data were processed

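The authors deposited raw read counts, whole numbers per known mature miRNA with 1 column per library. Named without a role in the submitters' processing notes are mm10, DESeq2 and bcl2fastq 2.0. Which aligner and counter made the counts, and how reads matching more than 1 miRNA were handled, was not given in the sources used here. A second table of predicted miRNAs was not used.

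The counts went into edgeR 4.0.16 (R 4.3.3): filterByExpr, TMM scaling, and the quasi-likelihood test of hypoxia against control over 619 miRNAs, Benjamini-Hochberg adjusted at 0.05. Each standard error was taken as |log2 fold change| / √F. DESeq2 1.42.0 and limma 3.58.1 (voom) were alternatives. The fit was tested on simulated data. The letter pairing comes from column names and values, not labels. Members, lists and alternatives were chosen with earlier results of these data known. Named were the 4 arms, the miR-378 relatives, miRNAs sharing an arm's seed, the 3 nearest to each arm, and each list's 3 most abundant and called members; others (miR-107-3p, miR-122-5p, miR-144-3p, miR-151-3p, miR-302a-3p, markers) were named after their values were seen.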

Additional observations from a re-analysis of the deposited data

How the results depend on the processing

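The count of called miRNAs was 0 in edgeR and stayed 0 in 13 of 19 alternatives, leaving out each single library among them (0 to 0). It was 4 without the filter, 1 with DESeq2, 14 with the replicate block, 37 with the block in DESeq2, 55 with the block and scaling to library size only, and 23 with the block without pair B. Among the 43 tested members of the metabolic and intronic lists and the miR-378 relatives together, those settings called 1, 1, 1, 3, 3 and 2. The last 5 settings with the block (DESeq2, library size, and without pair A, B or C) were added after the data were seen.

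Over the 19 alternatives the log2 fold change ran from 0.23 to 1.55 for miR-33-5p and from 1.08 to 2.17 for miR-33-3p. These settings rework the same libraries, and the levels took part in the choice, so nothing is read from the shared sign. Within the letter A pair miR-33-5p was lower in hypoxia, at -0.45. The top values, 1.55 and 2.17, came with the block without pair A. miR-378a-3p was at its lowest, -0.22, with the block without pair B. miR-378a-5p lay above 0 in 15 of 19. The 5p to 3p difference of miR-33 ran from -0.98 to -0.36 over 9 alternatives. These rework the same ratios, and the block gives the main value by construction. Nothing is read from their shared sign. Without the 10 CPM minimum, 1 of the 3 nearest miRNAs was kept for each miR-33 arm. Depth limits the miR-33 arms, whose libraries held 7 to 52 counts each. The cause of these shifts was not tested.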
